A study of Mus musculus with 9 samples.

Results

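Promoter methylation was read at 10 germline genes in the nucleus accumbens, a striatal region of the reward circuit that holds no germ cells. The genes are Sycp1, Sycp3 and Hormad1 of the meiotic chromosome axis and synaptonemal complex, Ddx4, Tdrd1, Mael and Dazl of germ cell RNA control, and Tex101, Dpep3 and Slc25a31 of sperm and testis. They were listed by name, as 10 of 27025 genes with a start in the RefSeq table of GRCm38.p6. A start was tested where no library listed fewer than 3 CpGs or 20 calls around it, which left 24062 starts with all 10 germline genes among them. A start was called CpG-dense when at least 30 CpGs were listed within 500 bp of it, which held for 11804 starts and for all 10 genes.

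Frozen punches of this region were profiled by whole-genome bisulfite sequencing. They came from male C57BL/6J mice, 5 libraries of the phenotype Control and 4 of the phenotype Susceptible. The labels attach 1 treatment to every library, in which mice of 8 weeks met a CD1 aggressor for 10 daily defeats. The labels do not describe a separate handling of Control mice or a score for susceptibility. They do not say that each library is a separate mouse, so p-values measure the spread between libraries. The level of a region is methylated calls over all calls, in percent, summed over its CpGs, and bisulfite does not tell 5-methylcytosine from 5-hydroxymethylcytosine.

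Germline genes with CpG-rich promoters are a textbook exception among CpG islands: most islands stay free of methylation in every tissue, whereas these become methylated around implantation and stay so in somatic cells. The primordial germ cells lose this methylation, and the genes are then switched on for meiosis, for transposon control by piRNAs and for sperm formation. E2F6 and the MAX and MGA pair, subunits of a noncanonical polycomb complex, are known to bind germline promoters in early embryos and stem cells, the MAX and MGA pair at the E-box CACGTG.

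The libraries held between 313475624 and 570984634 listed calls, and every Susceptible library held more than every Control library, by little at the nearest pair. The mean number of calls per listed cytosine overlapped, at 20.2 to 26.7 in Control and 21.8 to 25.2 in Susceptible libraries. Only cytosines with at least 10 calls were listed. Control 5 and Control 8 stood apart, since the strands of a CpG of intermediate level disagreed by 17.7 and 18.9 times the binomial amount, against 2.38 to 5.97 times in the other 7 libraries. Differences without these 2 libraries are therefore given below. Start levels of the striatal projection neuron genes Drd1, Drd2, Rgs9 and Tac1 lay between 9.50% and 16%, but 9826 of the 11804 CpG-dense starts read under 20% in every library, so these values do not check the tissue label. Averaged over 4 oligodendrocyte starts of equal weight, the level was 60.0 to 65.0% in Control and 55.7 to 59.4% in Susceptible libraries, without overlap. The groups also did not overlap at 1.9% of single starts, but no such share was counted for averages of 4 starts. Over 5 astrocyte starts this average was 51.7 to 56.1% and 42.3 to 54.1%, and over 3 microglia starts 78.4 to 83.2% and 76.6 to 81.9%, both with overlap. The part of these in the values below was not tested. A punch mixes cell types, so a change in the share of cells that carry a mark and a change within 1 cell type cannot be told apart.

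The promoter sequences that carry the results are given here from RefSeq, build GRCm38.p6, 5′ to 3′ on the strand of the gene. A promoter here is the stretch from 250 bp before to 50 bp after the start, 300 bp in all. At all 10 genes, 0 of the listed positions in it fell outside a CpG of the RefSeq sequence. The first 3 end at the base before the start and show the genes with a methylated promoter and a distinct E-box CpG, with the E-box CACGTG in capitals. Also in capitals is the E2F6-type motif TCCCGC, which reads GCGGGA when it lies on the other strand. The TCCCGC of Slc25a31 begins 20 bp after the start and is not in the stretch shown.
Slc25a31, chr3:40708621-40708870, plus strand: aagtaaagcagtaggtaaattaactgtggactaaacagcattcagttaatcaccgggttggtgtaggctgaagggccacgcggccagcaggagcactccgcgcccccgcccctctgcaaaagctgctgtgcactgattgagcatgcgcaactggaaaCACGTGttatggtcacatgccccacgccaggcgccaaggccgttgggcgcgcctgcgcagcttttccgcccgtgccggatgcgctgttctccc
Hormad1, chr3:95559427-95559676, plus strand: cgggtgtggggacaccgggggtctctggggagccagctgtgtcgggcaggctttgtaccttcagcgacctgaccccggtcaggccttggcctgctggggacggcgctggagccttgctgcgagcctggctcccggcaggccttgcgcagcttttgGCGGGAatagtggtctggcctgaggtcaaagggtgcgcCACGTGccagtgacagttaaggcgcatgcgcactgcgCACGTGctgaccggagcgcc
Sycp3, chr10:88459337-88459586, plus strand: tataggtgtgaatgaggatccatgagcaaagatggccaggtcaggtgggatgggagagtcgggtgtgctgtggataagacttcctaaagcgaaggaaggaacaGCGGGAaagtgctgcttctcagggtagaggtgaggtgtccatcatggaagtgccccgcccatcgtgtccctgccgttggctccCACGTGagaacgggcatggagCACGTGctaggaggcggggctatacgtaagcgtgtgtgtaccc
For Dazl, which has a sharp methylation edge inside the gene, the 250 bp before the start are shown with their 20 CpGs in capitals, and the capital C at the end begins a CpG that spans the start.
Dazl, chr17:50293621-50293870, minus strand: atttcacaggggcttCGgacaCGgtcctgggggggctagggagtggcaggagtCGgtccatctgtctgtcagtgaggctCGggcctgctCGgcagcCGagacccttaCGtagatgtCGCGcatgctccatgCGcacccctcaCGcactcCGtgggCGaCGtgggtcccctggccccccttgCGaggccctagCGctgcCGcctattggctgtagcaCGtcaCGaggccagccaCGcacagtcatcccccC
Shorter windows of 30 bases show the E-box, in capitals, at the other 4 genes that carry one.
Tdrd1, chr19:56826186-56826215, plus strand: tggggctgcgcgCACGTGggagtaaactgc
Ddx4, chr13:112652322-112652351, minus strand: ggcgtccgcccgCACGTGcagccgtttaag
Mael, chr1:166238950-166238979, minus strand: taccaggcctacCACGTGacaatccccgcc
Sycp1, chr3:102936177-102936206, minus strand: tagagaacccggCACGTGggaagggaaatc

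All 10 genes met the limit for a CpG-dense start, with 32 CpGs within 500 bp at Tex101 to 77 at Ddx4. The promoter sequences held between 12 CpGs (Dpep3) and 38 CpGs (Ddx4), with a GC content of 56.7% at Sycp1 to 72.0% at Ddx4 and an observed over expected CpG ratio of 0.462 at Dpep3 to 0.978 at Ddx4. CACGTG, which reads the same on both strands, occurred in 7 of the 10 promoters (70%), namely Sycp1, Sycp3, Hormad1, Ddx4, Tdrd1, Mael and Slc25a31, against 7.24% of all 27025 starts and 10.7% of CpG-dense starts. TCCCGC on either strand occurred in 6 of the 10 (60%), against 20.1% of all and 40.01% of CpG-dense starts. The 6 are those with an E-box other than Tdrd1. Both motifs together are in 2.05% of all starts and 4.37% of CpG-dense starts. The motifs do not overlap in their letters, and a match is a description of these windows only.

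All 10 germline genes were methylated over the start ±1 kb. Each read at or above 50% there in every library, which 301 of the 11804 CpG-dense starts did (2.55%). That share was 11.1% when at least 20 CpGs within 500 bp were asked for, and 0.870% when at least 40 were. At or above 80% in every library were 6 of the 10, against 173 CpG-dense starts (1.47%). The median over the 10 genes was 91.5%, and over all CpG-dense starts 4.21%. The genes were chosen as genes known for this methylation, so the contrast describes them and is not a test. In falling order of the mean over 9 libraries they were Dpep3 (94.7% ± 1.28, SD), Sycp1 (94.5% ± 0.726), Slc25a31 (93.3% ± 1.14), Mael (92.5% ± 1.32), Hormad1 (92.2% ± 1.39), Tex101 (90.9% ± 1.38), Sycp3 (84.4% ± 3.20), Ddx4 (78.4% ± 2.35), Tdrd1 (68.0% ± 7.28) and Dazl (60.0% ± 5.72). Every pair of neighbours in that order overlapped in range over the libraries, although Tex101 was above Sycp3, and Sycp3 above Ddx4, in 9 of 9 libraries. In the promoter alone, Tdrd1 averaged 48.5%, from 19.96% to 65.4% in single libraries, and Dazl 97.2%. The 50% limit and the order are thus those of the ±1 kb window and not of the promoter.

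**Figure D1:**
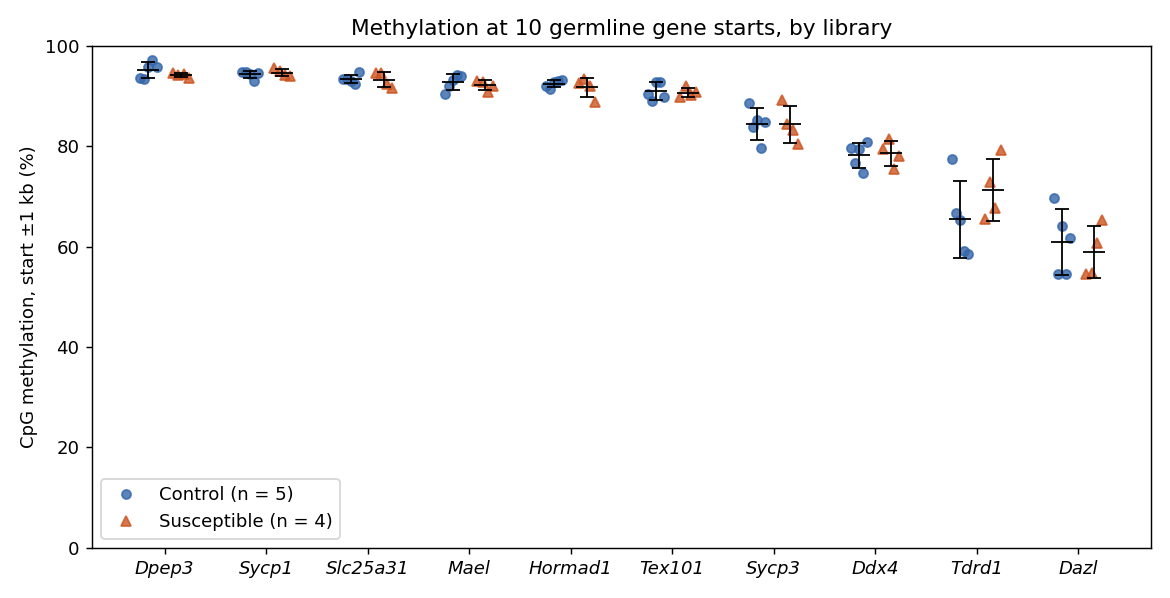
Methylation in percent over the start ±1 kb at the 10 germline genes, 1 point per library, with the group mean and SD in black (5 Control, 4 Susceptible). The points of the groups overlap at every gene, and the spread between libraries is largest at Tdrd1 and Dazl.

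Among the meiotic chromosome genes Sycp1 was the most and Sycp3 the least methylated. Sycp1 encodes the transverse filament that joins paired chromosomes. Its start on chromosome 3 (position 102936100, minus strand, 101 CpGs in the window) read 94.8%, 94.8%, 94.5%, 92.9% and 94.6% in Control 2, 3, 4, 5 and 8. In Susceptible 2, 3, 6 and 7 it read 95.5%, 94.9%, 94.2% and 94.1%. The values of the groups were interleaved, with Control 5 the lowest of the 9. Sycp1 was 94.3% ± 0.789 (SD, n = 5) in Control and 94.7% ± 0.687 (n = 4) in Susceptible libraries (exact permutation p = 0.516).

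Hormad1 encodes an axis protein that oversees pairing and is removed as chromosomes synapse. At its start on chromosome 3 (position 95559677, plus strand, 58 CpGs) the Control libraries read 92.0%, 91.4%, 92.9%, 93.0% and 93.3%. The Susceptible libraries read 92.5%, 93.5%, 92.0% and 88.9%. Apart from Susceptible 7 at the low end, all lay within a narrow band shared by both groups. The means of Hormad1 were 92.5% ± 0.777 (n = 5) and 91.7% ± 1.98 (n = 4; exact permutation p = 0.508).

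Sycp3 encodes a lateral element protein of the synaptonemal complex. Its start on chromosome 10 (position 88459587, plus strand, 64 CpGs) read 88.7%, 83.8%, 85.3%, 79.7% and 84.8% in Control and 89.3%, 84.5%, 83.3% and 80.4% in Susceptible libraries. Each group thus had members near the top and the bottom of the range. Most calls at Sycp3 came from the forward strand, from 1184 forward and 311 reverse calls in Control 5 to 1819 and 0 in Control 8. The forward and reverse strands read 85.3% and 59.5% in Control 3, and 80.3% and 81.0% in Susceptible 7. Methylation of Sycp3 was graded along the gene: the bin from -400 to -200 bp read 98.7% on average, the bins on either side of the start 87.7% and 87.3%, and the bin from 400 to 600 bp 77.4%. Of its 63 CpGs listed in at least 3 libraries, 43 had a mean of at least 80% and 20 lay between 20 and 80%. Sycp3 was 84.5% ± 3.20 in Control and 84.4% ± 3.70 in Susceptible libraries (n = 5 and 4, exact permutation p = 0.937).

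Of the genes of germ cell RNA control, Mael was the most methylated. It encodes a piRNA pathway protein that helps silence transposons. Its start on chromosome 1 (position 166238744, minus strand, 75 CpGs) read 90.3%, 92.1%, 93.2%, 94.2% and 94.1% in Control and 93.0%, 92.8%, 90.9% and 92.0% in Susceptible libraries. The Susceptible values lay inside the Control range. Mael was 92.8% ± 1.62 and 92.2% ± 0.948 (n = 5 and 4, exact permutation p = 0.532).

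Ddx4 encodes the germ cell RNA helicase known as VASA. Its start on chromosome 13 (position 112652310, minus strand, 89 CpGs) read 79.7%, 76.7%, 79.4%, 74.7% and 80.8% in Control and 79.4%, 81.4%, 75.4% and 78.0% in Susceptible libraries. The groups overlapped almost fully. Methylation of Ddx4 was partial on both sides of the start, at 76.0% from -200 to 0 bp and 71.3% from 0 to 200 bp, and reached 97.4% from 400 to 600 bp. Of 87 CpGs, 42 had a mean level between 20 and 80%. The group means over the start ±1 kb were 78.2% ± 2.48 (n = 5) and 78.6% ± 2.52 (n = 4; exact permutation p = 0.841).

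Tdrd1, a tudor protein that docks PIWI proteins, had the least methylated start itself. Over the start ±1 kb on chromosome 19 (position 56826209, plus strand, 63 CpGs) it read 77.5%, 66.7%, 65.3%, 59.2% and 58.5% in Control and 65.5%, 73.0%, 67.6% and 79.2% in Susceptible libraries. Control 5 and Control 8 were the lowest of the 9, and Susceptible 7 and Control 2 the highest. Methylation fell from 86.7% in the bin from -600 to -400 bp to 52.1% from -200 to 0 bp and 55.0% from 0 to 200 bp, then rose to 92.8% from 400 to 600 bp. Just upstream of the start, the -200 to 0 bp bin of Tdrd1 read 58.8%, 49.8%, 66.0%, 28.9% and 39.7% in Control and 52.0%, 60.3%, 52.5% and 60.7% in Susceptible libraries. The dip was present in all 9 libraries and deepest in Control 5. RefSeq lists further Tdrd1 starts 66 bp and 4503 bp downstream, whose windows read 70.8% and 92.5%.

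Dazl, an RNA-binding translational regulator needed for germ cell development, combined a nearly fully methylated start with an unmethylated stretch inside the gene. Over the start ±1 kb on chromosome 17 (position 50293620, minus strand, 139 CpGs) it read 69.8%, 54.5%, 64.0%, 54.5% and 61.7% in Control and 54.6%, 54.7%, 60.8% and 65.3% in Susceptible libraries. The highest value was in Control 2 and the groups were interleaved. Its promoter, however, read between 95.8% and 98.8% in all 9 libraries. Each bin of Dazl from -1000 to 400 bp averaged 91.4% or more, the bin from 400 to 600 bp averaged 20.1% and the bins from 600 to 1000 bp 2.27% and 2.39%. Of 135 CpGs at Dazl, 76 had a mean level of at least 80%, 55 were under 20% and only 4 lay between.

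The edge at Dazl fell at nearly the same place in every library. The last CpG at or above 80% lay 379 bp after the start in Control 4 and 461 or 472 bp after it in the others. The last CpG at or above 50% within the window lay 472 bp after the start in 8 libraries and 491 bp after it in Control 5. The first CpG under 20% lay 491 bp after the start in 5 libraries, 501 bp in Control 5 and Susceptible 6, and 513 bp in Control 8 and Susceptible 7. The share of Dazl's calls that came from beyond 400 bp varied from 31.5% in Control 2 to 48.8% in Susceptible 2, and the level over the window was highest in the library where this share was lowest.

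**Figure D2:**
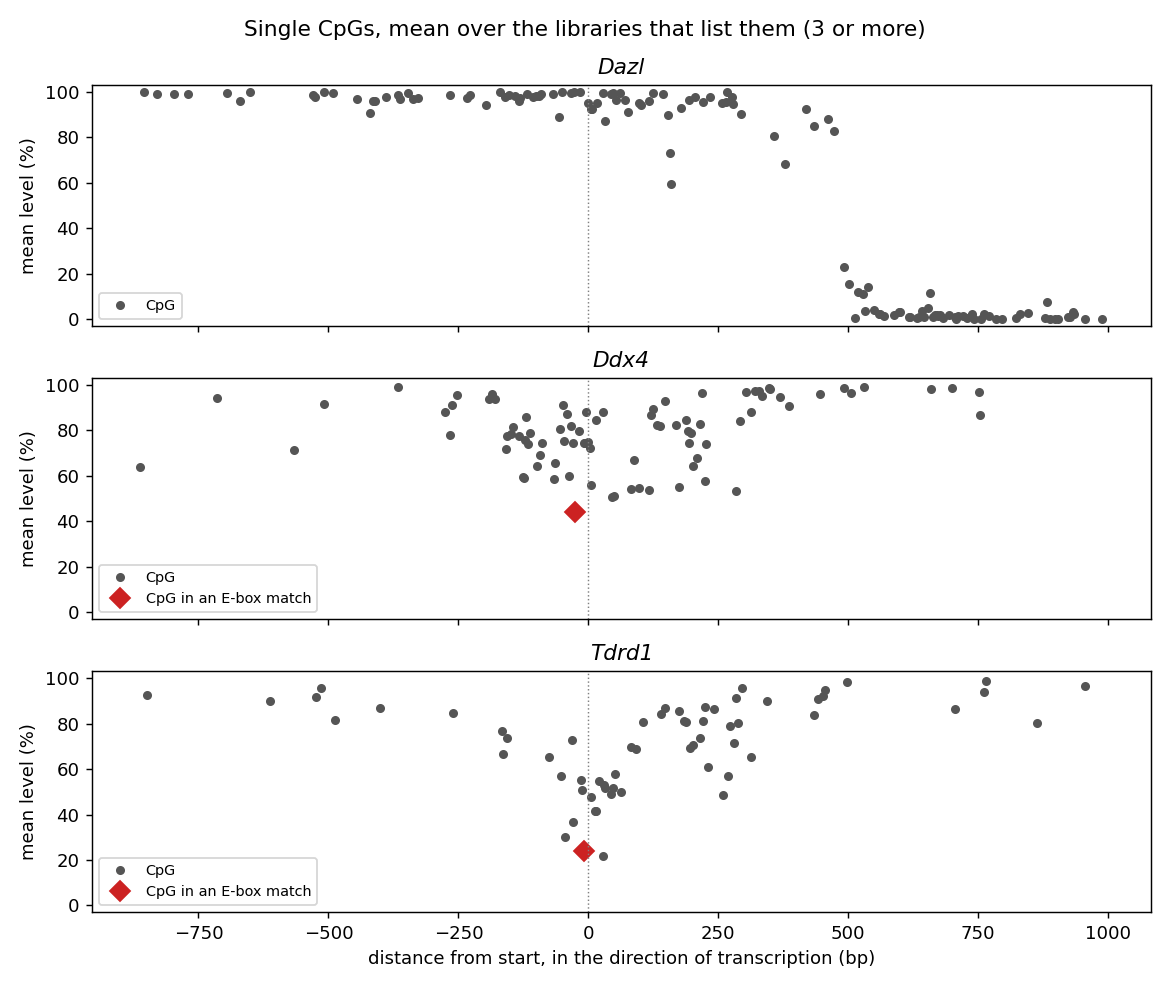
Mean methylation in percent of single CpGs at Dazl, Ddx4 and Tdrd1 against distance from the start in bp, over the libraries that list each CpG (at least 3). Dazl drops from 82.6% at 472 bp to 0.644% at 513 bp and reads up to 14.1% just beyond. Ddx4 and Tdrd1 dip around the start and their E-box CpG (red diamond) is among the lowest points.

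The sperm and testis genes were all highly methylated. Dpep3, a membrane-bound dipeptidase of the testis on chromosome 8 (position 105979419, minus strand, 57 CpGs), read 93.6%, 93.3%, 95.8%, 97.2% and 95.8% in Control and 94.7%, 94.1%, 94.5% and 93.7% in Susceptible libraries. The Susceptible values sat inside the Control range, and Control 5 was the highest. Dpep3 was 95.1% ± 1.64 and 94.2% ± 0.433 (n = 5 and 4, exact permutation p = 0.333).

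Tex101, a germ cell surface glycoprotein needed for sperm to enter the oviduct, lies on chromosome 7 (position 24672050, minus strand, 44 CpGs). It read 90.4%, 89.0%, 92.8%, 92.9% and 89.9% in Control and 89.8%, 91.9%, 90.2% and 90.8% in Susceptible libraries. All Susceptible values again lay within the Control range. Tex101 was 91.0% ± 1.76 and 90.7% ± 0.929 (n = 5 and 4, exact permutation p = 0.754).

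Slc25a31 encodes the testis form of the mitochondrial ADP/ATP carrier, the counterpart of somatic carriers such as Slc25a5. Its start on chromosome 3 (position 40708871, plus strand, 72 CpGs) read 93.4%, 93.4%, 92.9%, 92.4% and 94.8% in Control and 94.6%, 94.5%, 92.4% and 91.5% in Susceptible libraries. No library departed from the others. The group means of Slc25a31 were 93.4% ± 0.892 (n = 5) and 93.3% ± 1.55 (n = 4; exact permutation p = 0.833), whereas the start of Slc25a5 averaged 2.55%.

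**Figure D3:**
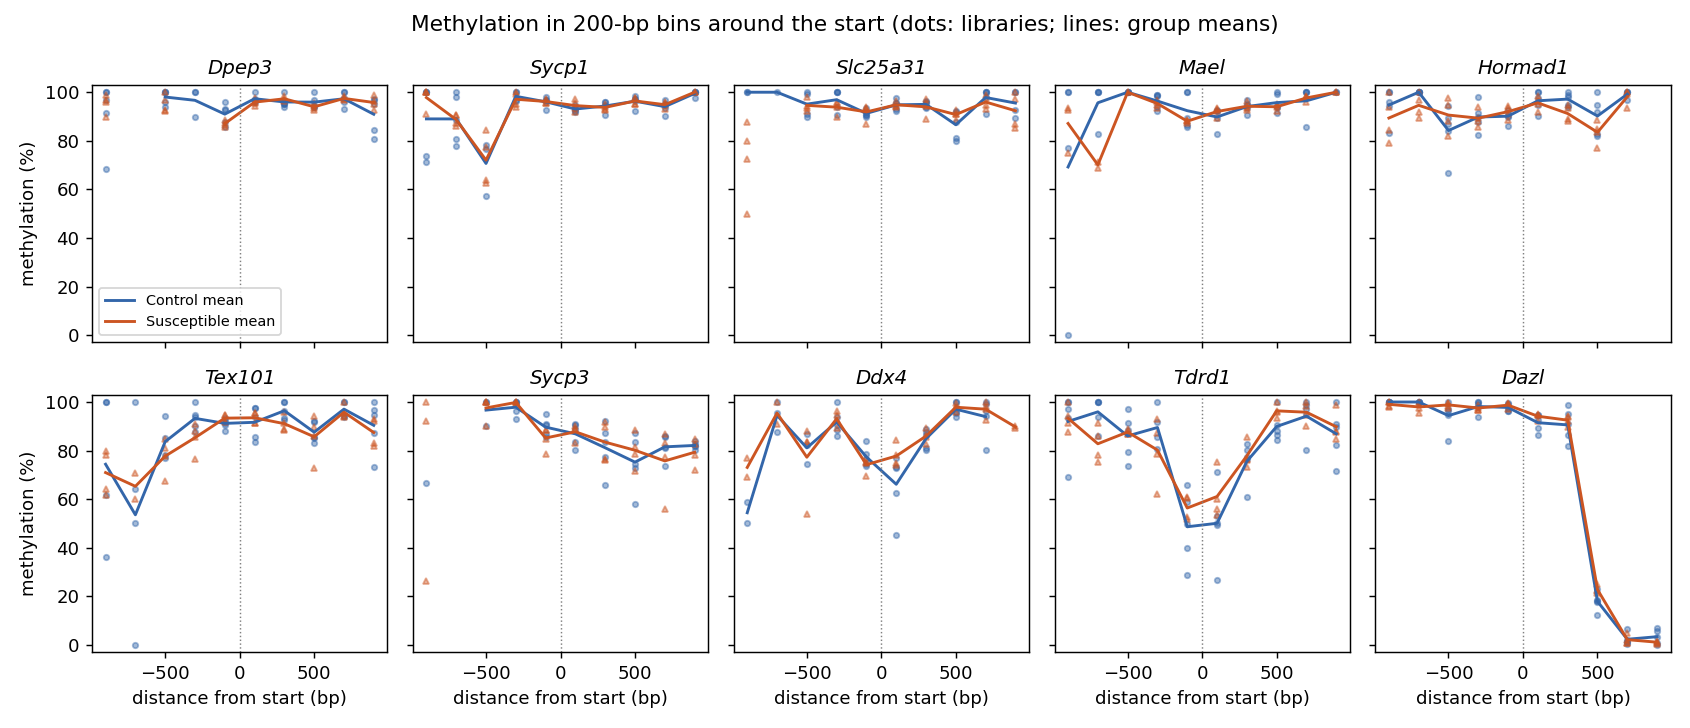
Methylation in percent in 200-bp bins from 1 kb before to 1 kb after the start, with 1 point per library (circles Control, triangles Susceptible) and lines for the group means. A bin with no point had no listed calls. The lines of the groups part most in bins beside the start of Tdrd1 and Ddx4 and in thinly covered bins far upstream, the dip at Tdrd1 spans the bins beside the start and the drop at Dazl falls after 400 bp.

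No germline start passed the test between Control and Susceptible libraries. A quasi-binomial model with moderated dispersion called 0 of 24062 starts at an adjusted p under 0.05 (0%), with a smallest adjusted p of 0.965, and limma on logit levels also called 0. An unadjusted p under 0.05 was reached by 1171 starts (4.87%) and by 0 of the 10 germline genes. The groups did not overlap at 457 starts (1.9%) and at 0 of the 10. The mean was lower in Susceptible libraries at 7 of the 10 genes and at 12641 of all starts (52.5%). The median difference, Susceptible minus Control, was -0.224 percentage points over the 10 genes and -0.0883 over all tested starts.

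The widest difference was at Tdrd1, 65.4% ± 7.65 (SD, n = 5) in Control and 71.3% ± 6.13 (n = 4) in Susceptible libraries, a difference of 5.88 percentage points (exact permutation p = 0.254, adjusted p = 0.965 in the model). With single libraries left out it ranged from 3.25 to 8.89 points. The upper end, without Control 2, is named after its value was seen (exact permutation p = 0.0571, p = 0.0172 and adjusted p = 0.844 in the model). Without Control 5 and Control 8 it was 1.48 points, and without them the difference was -3.91 at Dazl, -1.55 at Sycp3, -0.372 at Hormad1, 0.306 at Mael and between -0.0460 and 0.00466 at the other 5 genes. The Tdrd1 promoter averaged 43.4% ± 16.2 and 54.9% ± 8.31, with the lowest library, Control 5, at 19.96% (exact permutation p = 0.278). At Dazl the means were 60.9% ± 6.55 and 58.8% ± 5.19 (exact permutation p = 0.651), and over CpGs listed in all 9 libraries the difference turned from -2.04 to 2.48 points. Within 500 bp of the start, which leaves out the unmethylated stretch, Dazl averaged 92.8% and 94.5% (difference 1.66 points, exact permutation p = 0.0238, p = 0.0210 and adjusted p = 0.906 in the model). That difference was not computed without Control 5 and Control 8. In the Dazl bin from 0 to 200 bp these libraries were the lowest of all, at 86.6% and 89.3%. From -400 to -200 bp both read 100%. The smallest p that the 126 splits of 5 against 4 libraries allow is 0.00794. With a library left out there are fewer splits and this limit is higher.

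Bins gave no call either. Of the 100 bins at the 10 genes, 97 had calls and 49 passed the minimum of 3 CpGs and 20 calls in every library. The model called 0 of 77887 bins over all genes (0%), and 4967 (6.38%) reached an unadjusted p under 0.05, 3 of the 49 among them. Groups did not overlap in 2086 of 77926 bins (2.68%) and in 0 of the 49. The Susceptible mean was the higher in 29 and the lower in 20 of the 49, with a median difference of 0.141 points, whereas it was the lower at 7 of the 10 starts. No such count was made over all bins. The 3 bins are named here after their values were seen. The bin of Ddx4 from 0 to 200 bp read 66.1% ± 12.9 in Control and 77.8% ± 4.61 in Susceptible libraries, and Control 5 in it read 45.1% against 62.4 to 84.2% elsewhere. Without Control 5 and Control 8, the Control mean of that bin was 74.4%, a difference of 3.36 points in place of 11.6. The bin of Dazl that holds the edge, from 400 to 600 bp, read 17.9% ± 3.66 and 22.8% ± 1.61, a difference of 4.88 points that was 3.08 without Control 5 and Control 8. The bin of Hormad1 from 200 to 400 bp read 97.2% ± 2.64 and 91.2% ± 3.32, a difference of -5.94 points and of -5.05 without those libraries. Each of the 3 had an adjusted p of 0.777.

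The CpG inside the E-box was less methylated than its surroundings at these promoters. This pattern was noticed after the values were seen and has no test. At all 9 E-box CpGs, in 7 genes, the mean level was below that of the promoter's other CpGs outside both motifs, with differences from -32.8 to -3.77 points and a median of -21.8. Without Control 5 and Control 8 the 9 differences ran from -37.0 to -1.50 points. It was also below the mean of other CpGs within 50 bp at 9 of 9 sites, with a median difference of -20.6 points. With the calls of both strands added, a site was covered by 11 to 133 calls in a library.

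The lowest were at Tdrd1 and Ddx4. The Tdrd1 E-box CpG, whose motif begins 11 bp before the start, read 58.3%, 31.7%, 27.5%, 0% and 0% in Control and 29.3%, 29.03%, 13.6% and 27.7% in Susceptible libraries, below the promoter's other CpGs in 9 of 9 libraries. Both readings of 0% came from Control 5 and Control 8, and without them the mean rose from 24.1% to 31.0%, against 57.2% for the other CpGs. At Ddx4 the E-box CpG at -29 read 32.1%, 42.0%, 29.2%, 59.6% and 65.1% in Control and 46.3%, 49.3%, 36.0% and 38.5% in Susceptible libraries. Here Control 5 and Control 8 were the highest, and every library was still below its other Ddx4 promoter CpGs, which averaged 75.1%.

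E-box CpGs were also partly methylated in promoters of high mean level. At Slc25a31 the E-box at -93, in capitals in its sequence above, read 75.3%, 67.7%, 76.1%, 69.6% and 80.5% in Control and 81.2%, 68.3%, 61.3% and 71.6% in Susceptible libraries. All 9 were below the 94.2% mean of its other promoter CpGs. The E-boxes of Sycp3 at -64 and -43 averaged 58.0% ± 21.3 and 74.3% ± 12.7 against 90.8% for the other CpGs, lower in 8 of 9 libraries each. Those of Hormad1 at -57 and -20 averaged 67.1% ± 19.7 and 82.2% ± 17.5 against 92.2%, and were lower in 8 and 6 of 9 libraries. Without Control 5 and Control 8 the Hormad1 site at -20 averaged 77.2% against 93.1%. The E-box of Mael at -223 averaged 77.5% ± 8.81 against 91.0%, lower in all 9, but Mael CpGs at -116 (56.0%) and -54 (57.9%), outside the E-box, were lower still. The same was so of the CpG at 28 bp in Tdrd1 (21.9% against 24.1% in its E-box), at -164 and 8 in Sycp1 (82.5% and 90.1%) and, for the E-box at -20 only, at -250 in Hormad1 (79.3%). Sycp1 showed the least difference, with 91.9% ± 7.95 against 95.7%, lower in 6 of 9 libraries, and without Control 5 and Control 8 its difference was -1.50 points.

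CpGs in the E2F6-type motif lay close to their promoters. At 7 such sites in 6 genes the level averaged 77.4% to 98.1%, and the median difference from the other promoter CpGs was 2.87 points, with 1 site lower. Against other CpGs within 50 bp the median was 0.654 points, with 2 sites lower. The Ddx4 site at -136 turned from 2.32 to -3.62 points without Control 5 and Control 8, which made 2 of the 7 sites lower than their promoter. At 7 CpGs in ACGT outside CACGTG, which have the same bases next to the CpG, the median difference was 2.21 points, also with 1 site lower. These 7 sites are in 4 genes, of which Dazl, Tex101 and Dpep3 carry no E-box and only Sycp3 does. In each library the mean over the 9 E-box CpGs lay between 59.3% and 71.9% and the mean over the E2F6-type CpGs between 86.5% and 99.2%. The 2 means are not of the same promoters, since Tdrd1 has an E-box but no E2F6-type site. Control 5 and Control 8 listed no calls at the Mael E2F6-type site at -143, so their E2F6-type means rest on fewer sites. The E-box means of Control libraries (59.3 to 71.9%) enclosed those of Susceptible libraries (63.6 to 67.3%). The E2F6-type means were 88.4 to 99.2% in Control and 86.5 to 93.9% in Susceptible libraries, with overlap. No test was run on these means.

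**Figure D4:**
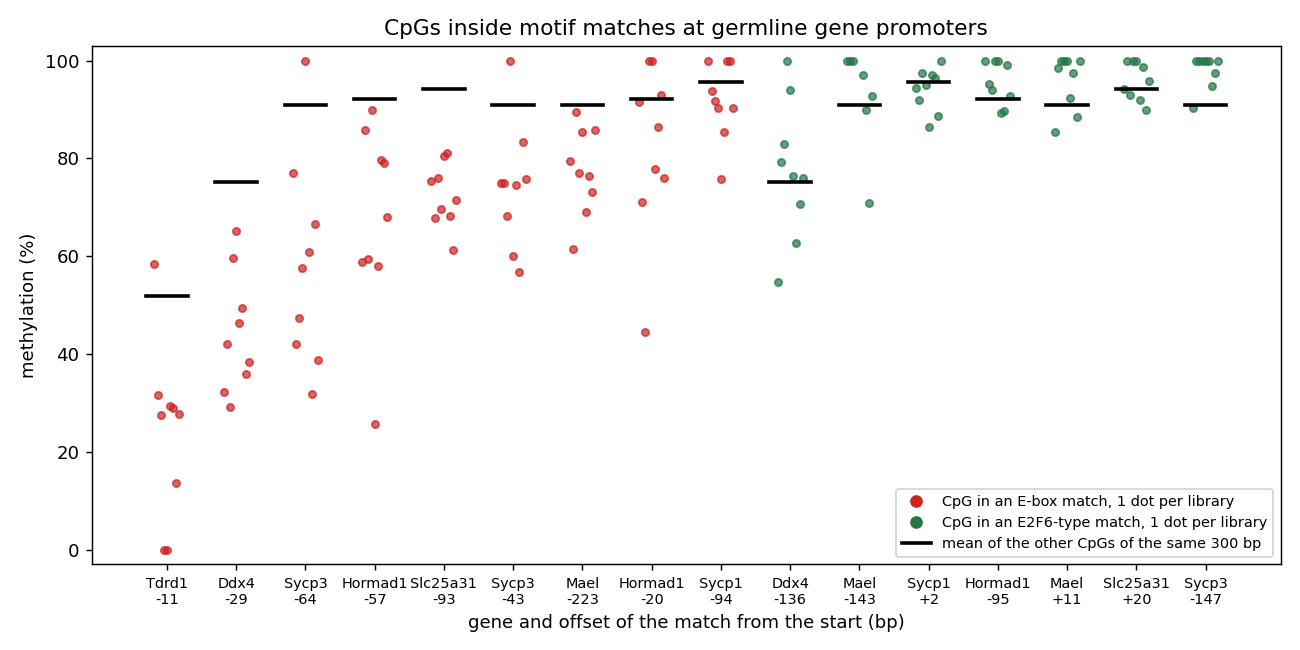
Methylation in percent of CpGs inside E-box (red) and E2F6-type (green) matches at the germline promoters, 1 point per library, labelled by gene and offset of the match from the start in bp. The black bar is the mean of the promoter's other CpGs, and the 9 E-box sites centre below their bars while 6 of 7 E2F6-type sites centre above.

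Other methylated starts were then read in the same way. Among CpG-dense starts at or above 50% in every library, outside the 10 genes, 43 E-box CpGs in 32 genes could be compared, and 38 were lower than the other CpGs of their promoter, with a median difference of -14.4 points. E2F6-type CpGs at such starts had a median difference of 2.31 points (48 sites, 18 lower) and ACGT outside CACGTG one of -2.78 points (140 sites, 85 lower). The E-box CpG was far below its promoter at Topaz1 (43.9% against 89.3%), Stk31 (49.9% against 89.9%), Piwil1 at -179 (49.6% against 85.2%) and Fkbp6 at -101 (49.3% against 92.2%), all named after their values were seen. It was not at Mov10l1 at -246, with 96.7% for both.

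Related germline genes were read from lists to show how far the methylated state extends. Of 18 other meiosis genes with a CpG-dense start, 9 were at or above 50% in every library, with Hsf2bp (92.4%), Syce3 (91.6%), Tex12 (91.3%) and Sycp2 (88.4%) the highest. Mei4 (5.16%), Msh5 (10.3%), Terb1 (10.5%) and Prdm9 (13.8%) were the lowest, although each acts in meiotic recombination or telomere attachment. Of 12 other piRNA genes, 8 were at or above 50%, from Mov10l1 (95.4%), Asz1 (95.4%), Tex19.1 (93.3%) and Tdrd12 (92.7%) down to Pld6 (24.9%), Tdrd5 (9.37%), Tdrkh (6.09%) and Ddx25 (4.34%). Of 12 other germ cell genes, 9 were, with Tuba3b (96.7%, uncertain because Tuba3a is a near copy of it), Sohlh2 (95.6%), Brdt (93.5%) and Figla (92.8%) highest and Lin28a (2.74%) lowest.

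Relatives of these genes used outside the germline had unmethylated CpG-dense starts. All 11 CpG-dense starts of somatic relatives, such as Brd2 (1.25%), relative of Brdt, and Stag1 (1.30%), relative of Stag3, read under 20% in every library, with a median of 1.996%. The 1 tested relative whose start is not CpG-dense, Dpep1, a relative of Dpep3, averaged 81.5%. Under 20% were also 15 of 16 CpG-dense starts of genes for silencing factors, among them Dnmt3a (1.35%), Smchd1 (1.04%), Pcgf6 (5.45%) and Dnmt3b (6.83%), the exception being L3mbtl2 with 11.6% on average and 22.3% in its highest library. The tested silencing factors whose start is not CpG-dense, Dnmt1 and Dnmt3l, averaged 88.0% and 90.5%, with 4 and 15 CpGs listed within 500 bp. Only the most upstream start of each was read, so these values do not describe any start further downstream. Over these lists 0 starts were called between the groups. Beside 4.87% of all starts, an unadjusted p under 0.05 was reached by 3 of 22 tested other meiosis genes, 1 of 15 piRNA genes, 1 of 16 germ cell genes, 1 of 12 somatic relatives and 0 of 18 silencing factors.

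**Figure D5:**
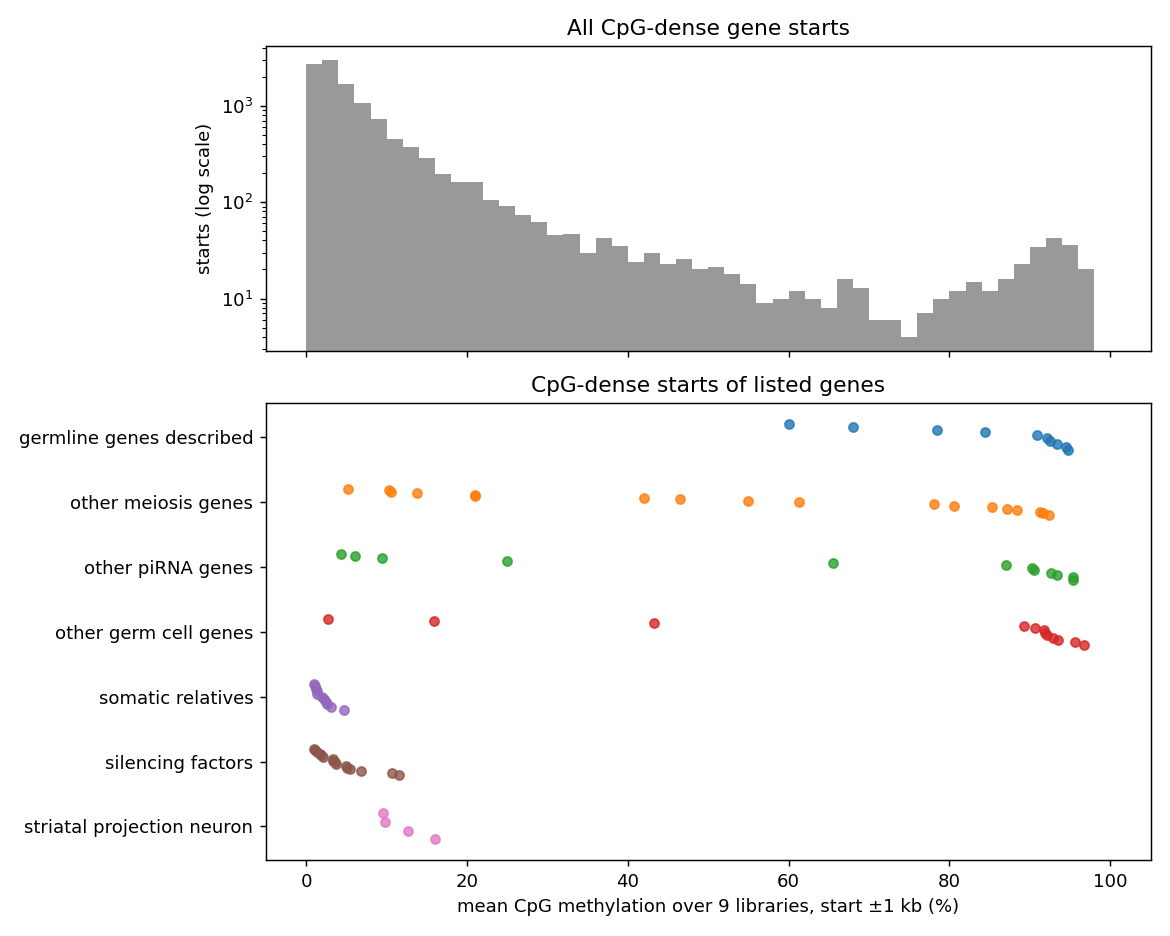
Top, the number of CpG-dense gene starts (log scale) by mean methylation in percent over 9 libraries. Bottom, the CpG-dense starts of the listed genes on the same axis, 1 point per gene, with the 10 germline genes between 60.0% and 94.7%, somatic relatives at 4.68% or less and other germline lists spread over both ends.

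The starts most like the germline genes in bin levels were sought among 806 of 10215 CpG-dense protein-coding starts, those with calls in all 10 bins in every library. The germline genes themselves do not pass this filter. Likeness was the root mean square difference from the median profile of the 10 genes, which compares levels and not shape alone. The bins of that median read 87.0 to 95.9%, so the dip at Tdrd1 and the unmethylated stretch of Dazl are not in it. Figla, an oocyte transcription factor, was nearest at 2.96 percentage points, followed by Fscn2 (3.46), Tcl1 (3.63), Gm52481 (3.90) and Rnf186 (4.30). Their mean levels over 9 libraries were between 92.8% and 95.1%.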

How the data were processed

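Per the labels' protocols, DNA was extracted from frozen punches with a column kit and made into bisulfite libraries with the Pico Methyl-seq kit. The submitters' processing notes name Bismark, Bowtie and Picard, without versions, and the build mm10. Per the file headers, each deposited file lists a coverage count per cytosine on each strand and the percent of those calls that read C, which are the authors' own values. Methylated calls were taken as coverage times percent, rounded to whole calls. Strands of a CpG were added. Columns of other samples numbered 0.

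Gene starts came from the RefSeq promoter table of GRCm38.p6, the most upstream start per gene, with levels over the start ±1 kb and 200-bp bins. Starts and bins under 3 CpGs or 20 calls in any library were left out. The test was an F test of the group in a quasi-binomial logistic model whose dispersion was moderated by limma's formulas, with Benjamini-Hochberg adjustment over all starts or all bins. Single genes had two-sided exact permutation tests of group means. The model did not pair libraries by the labels' replicate numbers. Libraries that share number 2 and number 3 had correlations of 0.0212 and -0.0244 in their deviations, and those of unlike number -0.0825 to 0.135. These values do not settle whether a shared number marks a pair. The scripts were tested on simulated data. Tools were Python 3.11.15, numpy 2.4.6, scipy 1.17.1, pandas 2.3.3 and matplotlib 3.10.9.

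All 10 germline genes are described. From other lists, at most the 4 highest and 4 lowest CpG-dense starts are named, with Dpep1, Dnmt1 and Dnmt3l (not CpG-dense) added after their values were seen. Of starts with bin levels like those of the germline genes, the 5 nearest are named. Members and lists were chosen with earlier results of these data known. Alternatives changed the window, the CpGs used, their weight, the coverage limits, the test, a depth covariate, a replicate block and the libraries. Listed genes with no start entry included Aqp4, Csf1r, Tmem119, Mbp, Dnd1, Dppa3, Prdm14, Tex15, Meiob, Spo11, Majin, Terb2, Tex11, Piwil2, Tdrd6, Pnldc1, Rnf17, Mybl1, Rybp, Yaf2, Stag2, Rad21, Dpep2, Ago2, Taf7, Ppp1r1b, Adora2a and Penk.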

Additional observations from a re-analysis of the deposited data

Results flagged for a closer look

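The start of Sycp1 in Control 5, at 92.9%, was the lowest of the 5 Control libraries, and its gap to the next (94.5% in Control 4) took most of the range of the group, which passes Dixon's limit for 5 values. Chance flags about 1 in 20 groups. Without Control 5 and Control 8 the mean of Sycp1 was 94.7% in both groups.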

How the results depend on the processing

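No alternative with libraries as replicates called a germline start. Pooling the calls of each group for a chi-square test, which ignores the spread between libraries, called 11787 starts, 25517 bins and 2 of the 10 genes, Dazl (difference -2.04 points) and Tdrd1 (5.88 points). The ±2 kb window called 1 start, Myo16. Bins went from 0 to 1 call when single libraries were left out, the 1 being a bin at Gm30528 without Control 5, which was also the 1 call without Control 5 and Control 8. With single libraries left out, starts and germline genes stayed at 0 calls. The count of germline genes used permutation p-values adjusted over all starts, whose lower limit leaves almost no room for a call. In the model, the lowest adjusted p of the 10 genes in these settings was 0.844, at Tdrd1. The share of CpG-dense starts at or above 50% was 11.1% with a limit of 20 CpGs, 0.870% with 40, and 2.55 to 2.67% with single libraries left out.

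Of 220 alternative values of the 10 genes, 176 kept their direction and side of the threshold, 42 changed sign and 2 passed the threshold (the chi-square test). None of the 42 was called. Within ±500 bp the difference, Susceptible minus Control, was 1.66 points at Dazl, 0.0204 at Hormad1, 0.159 at Sycp3 and 0.812 at Tex101, and within ±2 kb 0.225 at Slc25a31. Over CpGs listed in all 9 libraries it was 2.48 at Dazl, -0.923 at Ddx4, 0.118 at Dpep3, 0.0114 at Slc25a31 and 0.0904 at Tex101, and with CpGs weighted equally 0.284 at Hormad1. In the promoter sequence alone, chosen after seeing the data, it was 0.640 at Dazl, -1.69 at Ddx4, 2.17 at Hormad1, 0.392 at Slc25a31 and 2.03 at Tex101. Without Control 5 and Control 8, also chosen after seeing the data, it was -0.0123 at Ddx4, 0.00466 at Dpep3, 0.306 at Mael, 0.000650 at Slc25a31 and -0.00874 at Sycp1. With single libraries left out it ranged from -4.20 to 0.171 at Dazl, -0.616 to 1.39 at Ddx4, -1.37 to 0.157 at Hormad1, -0.597 to 0.441 at Slc25a31, -1.72 to 1.24 at Sycp3 and -0.809 to 0.162 at Tex101. The cause was not tested.

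With the replicate number as a block, 0 starts, 0 bins and 0 of the 10 genes were called. Only numbers 2 and 3 occur in both groups, so the block rests on 4 libraries. The difference was -7.46 points at Dazl (adjusted p = 0.860 in the model), 2.24 at Ddx4 and 0.435 at Sycp1, in the same direction as without the block, and it changed sign to 0.961 points at Dpep3, 1.30 at Hormad1, 1.67 at Mael, 1.14 at Slc25a31, 0.641 at Sycp3, -2.86 at Tdrd1 and 1.16 at Tex101. The samples share only a number, so these values say nothing of the strength of a difference.

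Depth limits single CpGs most: an E-box CpG with 11 calls in a library moves in steps of several points. Calls are reads, not counted molecules, and cytosines under 10 calls were not listed, so the CpGs behind a level differ between libraries.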
